A study of Mus musculus with 10 samples.

Results

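The genes described here make and maintain the protein folding machinery of the endoplasmic reticulum (ER). A list of 50 genes was set by name and role, with earlier results of these data known, and a gene was kept where a row of the array table carried its symbol alone. This left 48 genes of the 30142 measured under a single symbol: 14 chaperones, co-chaperones and prolyl isomerases, 5 enzymes of disulfide bond formation, 10 subunits of the translocon and signal peptidase, 4 subunits of the oligosaccharyltransferase, 10 genes of ER-associated degradation (ERAD) and 5 sensors and regulators of ER stress. Pdia4 and Manf had rows with several symbols and are not analysed here.

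Secreted and membrane proteins enter the ER through the translocon as they are made, lose their signal peptide to signal peptidase and gain sugar chains from the oligosaccharyltransferase. Chaperones led by Hspa5 (BiP) hold them while they fold, and disulfide isomerases join their cysteines. Chains that fail to fold are returned to the cytosol and destroyed, which is ERAD. When unfolded chains build up, the sensors IRE1 (Ern1), PERK (Eif2ak3) and ATF6 start the unfolded protein response, in which ATF6 and spliced XBP1 raise transcription of many of these genes. Luminal cells of the prostate are secretory cells that depend on androgen.

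RNA came from luminal cells sorted from the prostates of male mice with a Hoxb13-rtTA and a TetO-H2BGFP transgene, in which a Hoxb13-driven transactivator turns on a nuclear green fluorescent protein under doxycycline. All mice, those of the intact group included, drank 2 mg/ml doxycycline for 1 week before euthanasia. Regenerated mice (n = 4) were castrated at 12 weeks of age, left to regress for 6 weeks and then given testosterone for 4 weeks from a silastic implant under the skin, at a dose meant to give physiological serum levels. Castrated mice (n = 3) were castrated at the same age and left for the 6 weeks without testosterone. Intact mice (n = 3) were not castrated, and the sources used here do not give their age. Sorted cells were positive for the fluorescence and CD24, intermediate for CD49f, and negative for immune antigens, CD45, CD11b and a macrophage antigen. No group was castrated for as long as the regenerated mice without testosterone, so testosterone cannot be told apart from time since castration and age. The labels call the arrays biological replicates without saying whether each is 1 mouse or a pool, and the p-values then cover only the variation among these samples, which may be technical.

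Values are log2 RMA intensities from whole-transcript ClariomD (MTA-1.0) arrays, and 1 log2 is a doubling. Each mean carries the SD of its arrays, and each difference its standard error from limma, in log2. The 3 castrated arrays lay at 64.1 to 75.5 on the first principal component, regenerated replicate 4 at 3.03, the other regenerated arrays at -31.0 to -23.2 and the intact arrays at -47.6 to -40.5. Because regenerated replicate 4 stands apart, calls of the 48 genes that change without it are given beside each gene. Of 6 luminal markers, 3 were called higher and 1 lower in castrated than in intact arrays, and the 6 summed to 83.9 to 87.3 log2 in regenerated, 89.0 to 91.2 in castrated and 86.5 to 88.1 in intact arrays. The luminal keratin Krt18 rose by 1.41 log2 (adjusted p = 0.00119) and the sort antigen Cd24a by 1.72 log2 (adjusted p = 0.00358) in castrated against intact arrays. The keratin Krt8 averaged 15.15 ± 0.36 in regenerated, 17.20 ± 0.46 in castrated and 15.83 ± 0.63 in intact arrays and rose by 1.37 ± 0.35 log2 (adjusted p = 0.0364) in castrated against intact arrays, a call that ended without any of 6 arrays, castrated replicate 1 or 2, regenerated replicate 3 or any intact array (0.0544 to 0.126). Hoxb13, whose promoter drives the sort reporter, averaged 9.47 ± 0.86 in regenerated, 7.74 ± 0.20 in castrated and 10.39 ± 0.17 in intact arrays and fell by 2.65 ± 0.42 log2 (adjusted p = 0.00416) in castrated arrays. The adhesion molecules Epcam and Cdh1 differed by 0.59 and 0.37 log2 and were not called. In 44 of the 48 ER genes every array was above 6.40, the highest value of any background control row, and the others were Ero1b, Derl2, Derl3 and Ern2. The value of 6.40 came from castrated replicate 3, and the highest background rows of the other arrays lay at 4.66 to 5.58. Of 44 markers of other cell types, 34 had every group mean at or under that value, as did 20138 of all 30142 genes. The 7 B and plasma cell markers, a lineage rich in ER chaperones, summed to 29.1 to 30.0 log2 in regenerated, 29.1 to 30.1 in castrated and 28.9 to 29.9 in intact arrays, and 6 of the 7 had every group mean under that value.

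The first comparison concerns the ER machinery after castration and 6 weeks of regression. Of the 48 genes, 31 were lower in castrated than in intact arrays and none was higher, at an adjusted p under 0.05 from limma with Benjamini-Hochberg adjustment over all 30142 genes. Over all genes, 3.19% were called lower and 4.82% higher in castrated arrays. Shares of all genes, here and below, include the 20138 with every group mean at or under 6.40, where differences are limited in size. Of the 48 genes, 44 were above that value in every array, so the shares compare unlike levels. The median difference of the 48 genes was -1.27 log2, against 0.04 over all genes tested, and single genes ran from -3.34 to 0.38. In 44 of the 48 every castrated array was under every intact array, which held for 11.5% of all genes. Of the 31 genes called, 30 differed by at least 1 log2. In bulk RNA of sorted cells, fewer cells that make a transcript and less transcript per cell cannot be told apart. The count was 18 without castrated replicate 2, 18 without intact replicate 1 and 19 without intact replicate 2, and 16 of the 31 genes were called whichever array was left out.

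The second comparison sets luminal cells of the castrated and testosterone-treated mice against those of castrated mice. Of the 48 genes, 31 were higher in regenerated than in castrated arrays and none was lower, where 1.97% of all genes were called higher and 3.01% lower. The median difference was 1.55 log2, against -0.01 over all genes, and single genes ran from 0.14 to 4.45. In 39 genes every regenerated array was above every castrated array, which held for 6.53% of all genes. The count of genes called higher was 40 without regenerated replicate 4 and 22 without regenerated replicate 2, and 22 of the 31 genes were called whichever array was left out. The first and second comparisons use the same castrated arrays, so their values are given side by side and no overlap between them is read as a result. Canx, Ero1b and Ssr1 were called in the first comparison and not in the second, and Creld2, Pdia3 and Edem1 in the second and not in the first, without a test of the difference between the comparisons.

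The third comparison sets regenerated against intact arrays. None of the 48 genes was called by limma, while 0.0365% of all genes were called in either direction. An unadjusted p under 0.05 was found for 10 of the 48 genes (20.8%) and for 3019 of all 30142 genes, about 10%. The median difference was 0.10 log2, against 0.01 over all genes, and 34 of the 48 genes (70.8%) differed by less than 0.5 log2, against 90.0% of all genes. For 38 of the 48 the 95% interval of the difference included 0, against 90.0% of all genes. The median distance from the difference to either end of its interval was 0.62 log2, and over the genes it ran from 0.19 to 1.55. These intervals are not adjusted for the 30142 genes tested, so a call needed a difference larger than these widths. Derl3, at 2.13 log2 with an interval of 0.88 to 3.37, was not called (limma adjusted p = 0.269). With this number of arrays, the lack of calls does not show that the groups are equal. In none of the 48 genes was every regenerated array below every intact array, which held for 3.23% of all genes. In 10 genes every regenerated array was above every intact array, which held for 6.42% of all genes. Those 10 were Hsp90b1, Calr, Dnajc10, Fkbp11, Pdia6, Spcs1, Syvn1, Derl3, Ern1 and Ern2. Ern2 was under the highest background value in all 10 arrays, with a lowest regenerated value of 3.94 against a highest intact value of 3.93.

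The level of the whole set was also read array by array. Relative to each gene's intact mean, the median over the 48 genes was 0.13, 0.21, 0.27 and -0.37 log2 in the regenerated arrays, -1.14, -1.44 and -1.49 in the castrated arrays and 0.03, -0.03 and 0.07 in the intact arrays. The low regenerated value was that of replicate 4, which was the lowest of the 4 regenerated arrays in 30 of the 48 genes and under every intact array in 25. Every regenerated array was above every castrated array in this median.

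**Figure D1:**
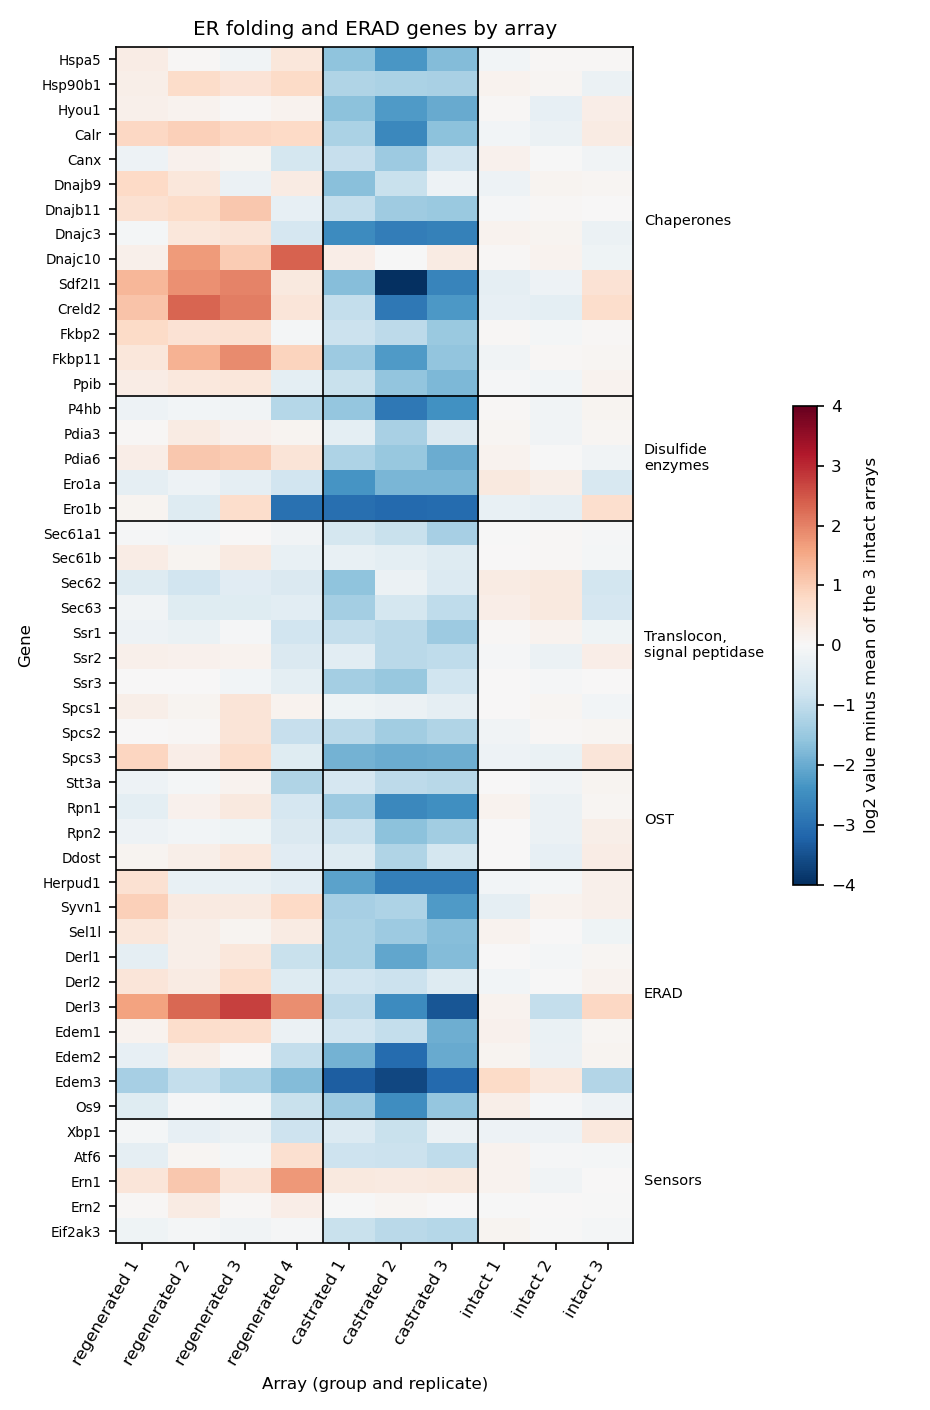
Level of each of the 48 genes (rows, by role; OST is the oligosaccharyltransferase) in each array (columns, by group and replicate), as its log2 value minus the mean of the 3 intact arrays, blue for lower and red for higher. Most genes are blue in the castrated arrays, where the array medians are -1.14, -1.44 and -1.49, and regenerated replicate 4 is paler or bluer than the other regenerated arrays in many rows.

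**Figure D2:**
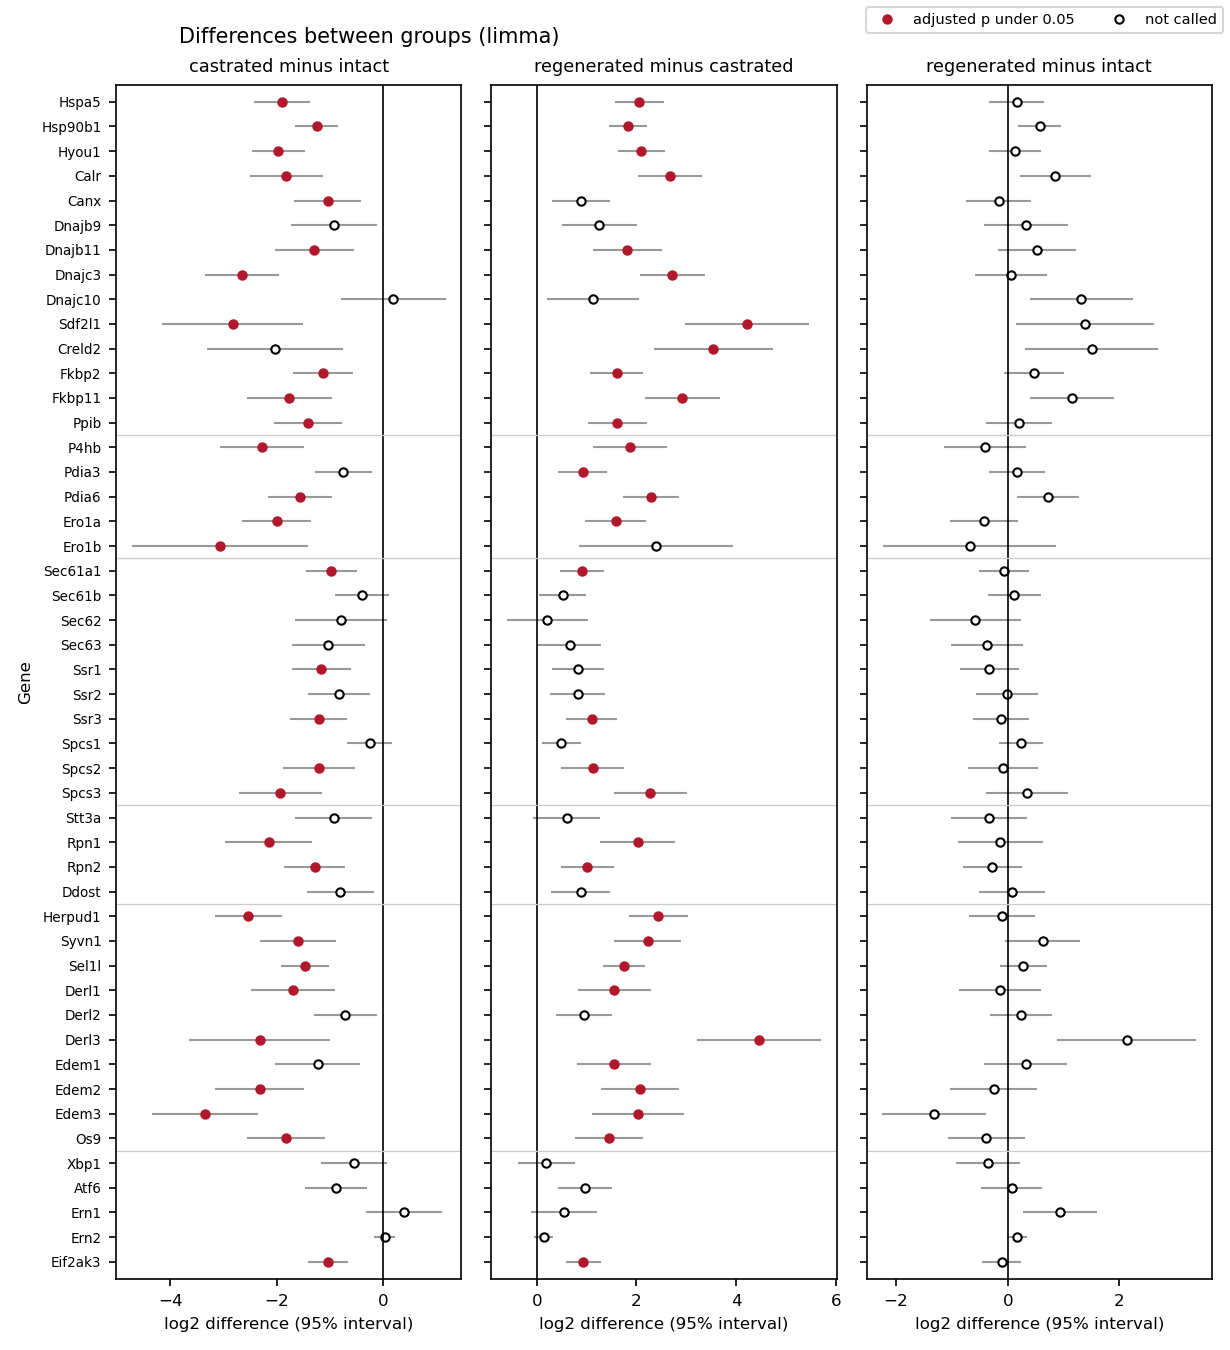
Differences between groups for the 48 genes, castrated minus intact at left, regenerated minus castrated in the middle and regenerated minus intact at right, in log2 with 95% intervals from limma. Filled points mark genes with an adjusted p under 0.05, which are 31, 31 and 0 genes in the panels from left to right.

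Promoter sequences are shown because known control elements of the unfolded protein response lie close to the start sites of several of these genes. The ER stress response element (ERSE) joins a CCAAT box, bound by NF-Y, to CCACG, bound by ATF6 or XBP1, across a spacer of 9 bases. A second form, ERSE-II, has ATTGG and CCACG across 1 base. RefSeq promoters of GRCm38.p6, from 250 bases before to 50 bases after a start site, were searched on both strands. Of the 48 genes, 41 had a promoter there, with 46 promoters in all, and Hyou1, Sec61a1, Ssr2, Spcs3, Derl1, Atf6 and Ern2 had no entry in the table.

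An ERSE was found in 10 of the 41 genes (24.4%), against 37 of 27025 genes in the table (0.137%), or 0.119% of its 32851 promoters. An ERSE-II was found in 2 of the 41 (4.88%), Dnajb11 and Herpud1, against 0.0444% of all genes. The XBP1 element TGACGTGG was in none of the 41 and in 0.714% of all genes, and TGACGTGA was in 1 of the 41 (2.44%), Hspa5, and in 0.507% of all genes. The letters CCACG alone, which also end both paired elements, were in 34 of the 41 (82.9%) and in 35.5% of all genes. These are letter matches in a window, not measured binding. The elements were chosen because they are known in several of these genes, so a higher share among the 41 is no test.

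The 250 bases before the start site of Hspa5, on the plus strand at chr2:34771840-34772089, hold an ERSE centred 56 bases and TGACGTGA centred 154 bases before the start, both in capitals.
Hspa5: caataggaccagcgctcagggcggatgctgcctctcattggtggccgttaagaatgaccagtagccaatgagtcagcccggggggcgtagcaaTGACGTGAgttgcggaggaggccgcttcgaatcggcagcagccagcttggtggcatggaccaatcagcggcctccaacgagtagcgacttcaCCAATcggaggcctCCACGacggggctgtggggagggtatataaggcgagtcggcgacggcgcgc

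The ERSE-II of Dnajb11, at chr16:22857852-22857862 on the plus strand, is centred 12 bases after the start site and is not printed. The remaining matches are shown with 10 bases on either side, 5′ to 3′ on the strand of the gene, with the fixed letters of the element in capitals; a match on the opposite strand reads CGTGG before ATTGG. Those on the plus strand of GRCm38.p6 are Creld2 at chr15:88819510-88819548, Derl3 at chr10:75893232-75893270, Dnajc3 at chr14:118937817-118937855, Ero1b at chr13:12565672-12565710, Herpud1 at chr8:94386367-94386397, Pdia6 at chr12:17266481-17266519 and Syvn1 at chr19:6046522-6046560. Those on the minus strand are Calr at chr8:84847065-84847103, Canx at chr11:50325790-50325828 and Hsp90b1 at chr10:86705523-86705666, and the Hsp90b1 window holds an ERSE at each end.
Calr: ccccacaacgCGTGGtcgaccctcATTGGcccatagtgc
Canx: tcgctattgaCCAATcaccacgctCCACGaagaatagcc
Creld2: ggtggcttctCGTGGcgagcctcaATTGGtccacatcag
Derl3: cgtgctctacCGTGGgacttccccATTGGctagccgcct
Dnajc3: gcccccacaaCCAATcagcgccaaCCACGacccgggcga
Ero1b: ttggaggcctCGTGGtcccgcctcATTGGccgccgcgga
Herpud1: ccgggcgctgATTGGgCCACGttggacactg
Hsp90b1: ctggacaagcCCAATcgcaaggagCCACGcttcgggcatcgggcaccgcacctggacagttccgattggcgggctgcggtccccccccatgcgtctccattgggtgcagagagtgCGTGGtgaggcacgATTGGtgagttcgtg
Pdia6: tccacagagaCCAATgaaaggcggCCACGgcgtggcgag
Syvn1: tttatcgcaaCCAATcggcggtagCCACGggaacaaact

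Of the 12 genes with either paired element, 11 were lower in castrated than in intact arrays (median -1.86 log2) and 10 were higher in regenerated than in castrated arrays (median 2.34 log2). Creld2 was not called in the first comparison, and Canx and Ero1b were not called in the second. Of the 29 genes with a promoter and neither element, 16 were lower in castrated arrays (median -1.16 log2) and 17 higher in regenerated arrays (median 1.12 log2). The difference between the sets was not tested. Of 26 measured genes outside the list whose promoter holds a paired element, 2 were lower in castrated than in intact arrays, with a median of 0.04 log2. In regenerated against castrated arrays 3 of the 26 were higher, with a median of 0.01 log2. Over all genes, 3.19% were called lower in the first comparison and 1.97% higher in the second. Alg12, a mannosyltransferase of the ER sugar chain, and Nucb1, a calcium-binding protein of the Golgi, were called in both, at -1.26 and 1.47 log2 and at -1.02 and 1.21 log2. Krtcap2, an oligosaccharyltransferase subunit, was called in the second at 0.90 log2. All of these but the second call of Alg12 ended without 1 or another array, with adjusted p = 0.0517 to 0.147.

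**Figure D3:**
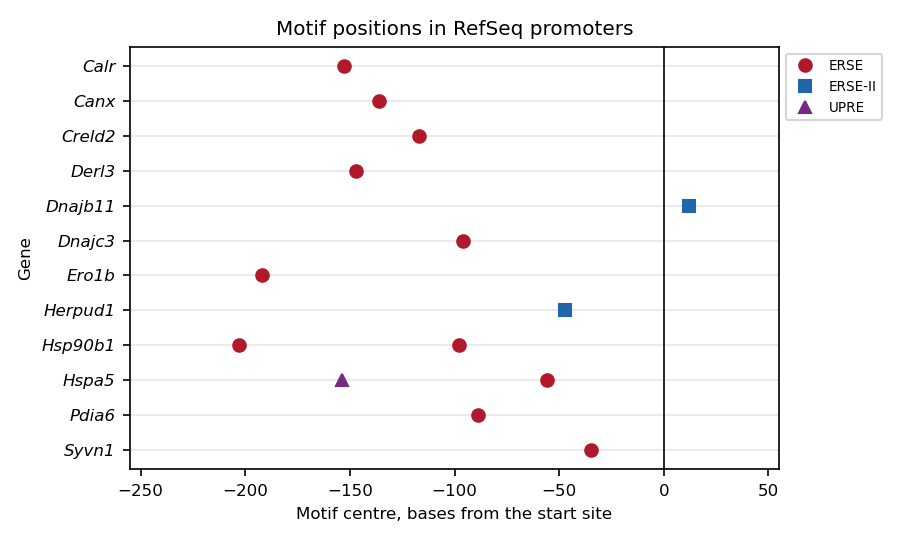
Centre of each paired element (ERSE, circles; ERSE-II, squares) and of TGACGTGA (triangle, labelled UPRE) in the promoters of the 12 genes with a paired element, in bases from the start site at 0. The matches lie from 203 bases before the start, in Hsp90b1, to 12 bases after it, in Dnajb11.

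For single genes, "fell" refers to castrated against intact arrays and "rose" to regenerated against castrated arrays, unless another pair is named, and where a pair of differences is given the castrated one stands before the regenerated one. Among the 14 chaperones, co-chaperones and isomerases, 11 fell in castrated against intact arrays and 11 rose in regenerated against castrated arrays, with medians of -1.59 and 1.94 log2. Hspa5 (BiP, transcript cluster TC0200000620.mm.1), the Hsp70 of the ER lumen, measured 15.03, 14.80, 14.60 and 15.19 in regenerated arrays, 13.12, 12.42 and 13.00 in castrated arrays and 14.62, 14.80 and 14.80 in intact arrays. The castrated arrays lay below all others and the regenerated and intact arrays overlapped. Hspa5 fell by 1.90 ± 0.24 log2 (adjusted p = 0.00121) in castrated arrays, which is 3.72-fold lower, and rose by 2.06 ± 0.22 log2 (adjusted p = 0.000695) in regenerated against castrated arrays. Against intact arrays the regenerated difference was 0.16 ± 0.22 log2 (adjusted p = 0.906), with a 95% interval of -0.33 to 0.66.

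Of the partners of BiP, Dnajc3 and Sdf2l1 both fell and rose. Dnajc3 (TC1400001290.mm.1), a DnaJ co-chaperone of BiP that also restrains PERK, measured 13.42, 13.96, 14.02 and 12.81 in regenerated arrays, 10.98, 10.73 and 10.80 in castrated arrays and 13.63, 13.60 and 13.26 in intact arrays, so that castrated arrays were low and the other groups overlapped. It fell by 2.66 ± 0.31 log2 (adjusted p = 0.000869) and rose by 2.72 ± 0.29 log2 (adjusted p = 0.000696). Sdf2l1 (TC1600001280.mm.1), a partner of the co-chaperone Dnajb11, measured 14.08, 14.59, 14.74 and 13.13 in regenerated arrays, 11.04, 8.60 and 10.11 in castrated arrays and 12.38, 12.54 and 13.32 in intact arrays. Its castrated arrays spread over more than 2 log2 and all lay below the intact arrays, and 3 of its 4 regenerated arrays lay above every intact array. Sdf2l1 fell by 2.83 ± 0.60 log2 (adjusted p = 0.0167) in castrated arrays, a call that ended without intact replicate 2 (adjusted p = 0.0517) or intact replicate 3 (adjusted p = 0.0557), and the fitted difference was -2.17 log2 without castrated replicate 2. It rose by 4.22 ± 0.56 log2 (adjusted p = 0.00203) in regenerated arrays, or by 3.56 log2 without castrated replicate 2.

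Creld2 (TC1500000852.mm.1), an ER stress-induced protein with disulfide isomerase activity, measured 15.80, 16.98, 16.71 and 15.14 in regenerated arrays, 13.71, 11.80 and 12.34 in castrated arrays and 14.34, 14.28 and 15.34 in intact arrays. Castrated arrays were the lowest here too, but the difference of -2.03 ± 0.57 log2 (adjusted p = 0.0572) was not called with all arrays, and was called without regenerated replicate 4 (adjusted p = 0.0311) or castrated replicate 1 (adjusted p = 0.0248). Creld2 rose by 3.54 ± 0.54 log2 (adjusted p = 0.00424) in regenerated arrays. Dnajc10 (TC0200001171.mm.1), a DnaJ reductase of disulfide bonds, measured 13.14, 14.63, 13.95 and 15.29 in regenerated arrays, 13.21, 12.91 and 13.25 in castrated arrays and 12.97, 13.06 and 12.77 in intact arrays, and showed the smallest difference of the role between castrated and intact arrays at 0.19 ± 0.44 log2 (adjusted p = 0.874). Its regenerated arrays spread from 13.14 to 15.29 with replicate 4 highest, and the difference from castrated arrays was 1.13 ± 0.42 log2 (adjusted p = 0.167), called without regenerated replicate 1 (adjusted p = 0.0301).

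The remaining folding factors were lower in castrated arrays with 1 exception. Hyou1, an Hsp110 that reloads BiP with nucleotide, fell by 1.97 ± 0.23, and the lectin chaperone Calr by 1.82 ± 0.31. Hsp90b1 (Grp94), the Hsp90 of the ER, fell by 1.26 ± 0.19. The prolyl isomerases Fkbp11, Ppib (cyclophilin B) and Fkbp2 fell by 1.77 ± 0.36, 1.42 ± 0.29 and 1.13 ± 0.26. Dnajb11 fell by 1.30 ± 0.34 and the membrane lectin Canx (calnexin) by 1.05 ± 0.28, with adjusted p = 0.0416 and 0.047. Dnajb9 differed by -0.92 ± 0.36 log2 (adjusted p = 0.173) and was not called. Of these, Canx lost its call on leaving out any of 9 arrays, all but regenerated replicate 4 (adjusted p = 0.0581 to 0.175). Dnajb11 lost it without any of 8 arrays, all but regenerated replicates 3 and 4 (adjusted p = 0.0532 to 0.127). Fkbp2 lost it without castrated replicate 2 or 3 or any intact array (adjusted p = 0.0625 to 0.0923), Fkbp11 without castrated replicate 2 or intact replicate 1 or 2 (0.0525 to 0.0591), and Ppib without castrated replicate 2 or intact replicate 1 (0.0548 to 0.0579).

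Of these 9 folding factors, 7 rose in regenerated against castrated arrays. Fkbp11 measured 12.11 to 13.54 in regenerated, 9.39 to 10.19 in castrated and 11.52 to 11.73 in intact arrays and rose by 2.92 ± 0.34 log2 (adjusted p = 0.00103). Calr rose by 2.68 ± 0.29 log2 (adjusted p = 0.000696), Hyou1 by 2.10 ± 0.21 log2 (adjusted p = 0.000459) and Hsp90b1 by 1.83 ± 0.17 log2 (adjusted p = 0.000343). Dnajb11, Ppib and Fkbp2 rose by 1.82 ± 0.32, 1.62 ± 0.27 and 1.60 ± 0.24. Canx and Dnajb9 differed by 0.89 ± 0.26 and 1.26 ± 0.34 and were not called with all arrays. Canx was called at 1.07 log2 without regenerated replicate 4 (adjusted p = 0.018), and Dnajb9 at 1.62 log2 without castrated replicate 3 (adjusted p = 0.0264). In Hsp90b1, Calr, Dnajc10 and Fkbp11 every regenerated array was above every intact array, by a mean of 0.57, 0.85, 1.32 and 1.15 log2, with limma adjusted p = 0.29, 0.341, 0.304 and 0.282, none of them called.

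**Figure D4:**
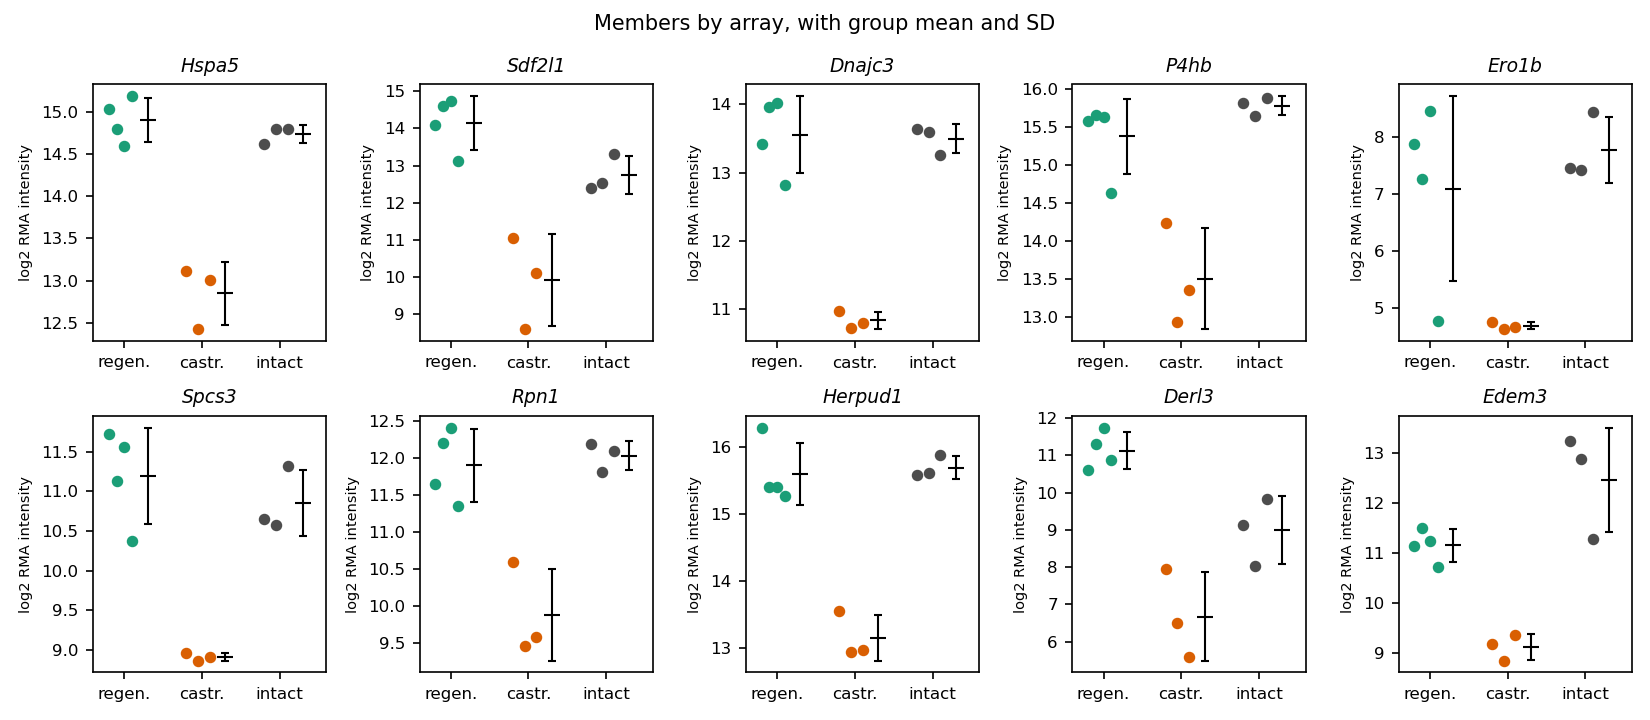
Log2 RMA intensity of 10 genes in each regenerated (left, n = 4), castrated (middle, n = 3) and intact array (right, n = 3), with the group mean and SD beside the points; each panel has its own axis, which does not start at 0. In every panel the 3 castrated arrays lie below the intact arrays, and for Ero1b regenerated replicate 4, at 4.78, lies beside the castrated arrays.

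The enzymes that form and rearrange disulfide bonds showed large differences: 4 of 5 fell in castrated arrays (median -2.01 log2) and 4 of 5 rose in regenerated against castrated arrays (median 1.87 log2). P4hb (TC1100004215.mm.1), the founding protein disulfide isomerase and a subunit of collagen prolyl hydroxylase, measured 15.58, 15.66, 15.64 and 14.64 in regenerated arrays, 14.24, 12.93 and 13.35 in castrated arrays and 15.82, 15.64 and 15.88 in intact arrays. All castrated arrays were low, and regenerated replicate 4 lay between the castrated arrays and the rest. P4hb fell by 2.28 ± 0.36 log2 (adjusted p = 0.00373) and rose by 1.87 ± 0.33 log2 (adjusted p = 0.00994). Ero1a (TC1400001898.mm.1), an oxidase that recharges the isomerases, measured 8.61, 8.77, 8.62 and 8.21 in regenerated arrays, 6.61, 7.15 and 7.15 in castrated arrays and 9.37, 9.21 and 8.34 in intact arrays, and fell by 2.01 ± 0.30 log2 (adjusted p = 0.00263) and rose by 1.58 ± 0.28 log2 (adjusted p = 0.00909).

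Ero1b (TC1300000072.mm.1), the second oxidase, measured 7.87, 7.26, 8.45 and 4.78 in regenerated arrays, 4.77, 4.65 and 4.68 in castrated arrays and 7.46, 7.41 and 8.43 in intact arrays. All castrated arrays and regenerated replicate 4 were under 6.40, the highest background value, and the size of the difference depends on that floor. Ero1b fell by 3.07 ± 0.75 log2 (adjusted p = 0.0316) in castrated arrays, and lost the call when any castrated or intact array was left out (adjusted p = 0.075 to 0.0955). The difference between regenerated and castrated arrays was 2.39 ± 0.70 log2 (adjusted p = 0.0838), not called, and 3.16 log2 (adjusted p = 0.000622) without regenerated replicate 4. Pdia3, the isomerase that works with Calr and Canx, measured 14.88, 15.16, 15.00 and 14.92 in regenerated arrays, 14.44, 13.52 and 14.24 in castrated arrays and 14.89, 14.68 and 14.89 in intact arrays. It had the smallest difference of this role between castrated and intact arrays, -0.75 ± 0.24 log2 (adjusted p = 0.09), which was not called. Pdia3 rose by 0.92 ± 0.22 log2 (adjusted p = 0.0435) in regenerated arrays, and lost that call without any of 8 arrays, all but regenerated replicate 4 and castrated replicate 1 (adjusted p = 0.0635 to 0.138). Pdia6 fell by 1.57 ± 0.27 log2 (adjusted p = 0.00622) and rose by 2.29 ± 0.25 log2 (adjusted p = 0.000747).

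In the translocon and signal peptidase, 5 of 10 genes fell in castrated arrays and 4 of 10 rose in regenerated against castrated arrays, with medians of -1.0 and 0.83 log2. Signal peptidase is represented by 3 noncatalytic subunits. Spcs3 (TC0800002236.mm.1) measured 11.72, 11.13, 11.56 and 10.37 in regenerated arrays, 8.97, 8.87 and 8.91 in castrated arrays and 10.65, 10.58 and 11.32 in intact arrays, with the castrated arrays below all others. It fell by 1.94 ± 0.35 log2 (adjusted p = 0.00829) and rose by 2.28 ± 0.33 log2 (adjusted p = 0.00329). Spcs2 measured 16.14, 16.18, 16.64 and 15.21 in regenerated arrays, 15.07, 14.75 and 14.94 in castrated arrays and 15.99, 16.18 and 16.22 in intact arrays. It fell by 1.21 ± 0.30 log2 (adjusted p = 0.0354) and rose by 1.12 ± 0.28 log2 (adjusted p = 0.0494), and both calls depended on which arrays entered. Its first call ended without any of 7 arrays, all but regenerated replicates 1, 3 and 4 (adjusted p = 0.055 to 0.115), and its second without any of 9, all but regenerated replicate 4 (0.0709 to 0.165). Spcs1 measured 9.17, 9.04, 9.45 and 9.08 in regenerated arrays, 8.77, 8.71 and 8.59 in castrated arrays and 8.98, 9.01 and 8.85 in intact arrays, with the castrated arrays just below the others, and differed by -0.26 ± 0.19 log2 (adjusted p = 0.521) and 0.50 ± 0.18 log2 (adjusted p = 0.161), neither called.

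In the translocon-associated complex and the Sec61 channel, Ssr3 and Sec61a1 were called in both comparisons and Ssr1 in the first alone. Ssr3 (TC0300002094.mm.1), a subunit of the translocon-associated complex, measured 12.01, 12.03, 11.90 and 11.60 in regenerated arrays, 10.66, 10.48 and 11.22 in castrated arrays and 12.03, 11.94 and 12.03 in intact arrays, fell by 1.22 ± 0.24 log2 (adjusted p = 0.0133) and rose by 1.10 ± 0.23 log2 (adjusted p = 0.0213). Without castrated replicate 2 or intact replicate 1 or 2 its first call ended (adjusted p = 0.0505 to 0.0636), and without regenerated replicate 2 or 3 or castrated replicate 1 or 2 its second (0.0573 to 0.0975). Sec61a1, the pore of the channel, ranged over 12.05 to 12.19 in regenerated, 10.86 to 11.47 in castrated and 12.15 to 12.22 in intact arrays, fell by 0.98 ± 0.21 log2 (adjusted p = 0.0197) and rose by 0.91 ± 0.20 log2 (adjusted p = 0.0283). Its first call ended without castrated replicate 2 or 3 or intact replicate 1 or 2 (adjusted p = 0.0562 to 0.0834), and its second without any of 7 arrays, all but regenerated replicate 4, castrated replicate 1 and intact replicate 3 (0.0555 to 0.0912). Ssr1 fell by 1.16 ± 0.25 log2 (adjusted p = 0.0193), a call that ended without the same 4 castrated or intact arrays (0.0535 to 0.0853), and differed by 0.83 ± 0.24 log2 (adjusted p = 0.0774) between regenerated and castrated arrays, which was called at 0.98 log2 without regenerated replicate 4 (adjusted p = 0.0187). Sec61b, Sec62, Sec63 and Ssr2 differed by -0.40, -0.79, -1.03 and -0.84 log2 in castrated against intact arrays and by 0.52, 0.21, 0.66 and 0.82 in regenerated against castrated arrays, and none was called with all arrays. Without regenerated replicate 4 both Ssr2 differences were called (adjusted p = 0.0245 and 0.0144), as was the second Sec61b difference (adjusted p = 0.0482), and the first Sec63 difference was called without intact replicate 3 (adjusted p = 0.017).

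The oligosaccharyltransferase had 2 of 4 subunits lower in castrated arrays, the same 2 higher in regenerated against castrated arrays, and medians of -1.11 and 0.95 log2. Rpn1 (ribophorin I, TC0600001027.mm.1) measured 11.65, 12.21, 12.41 and 11.35 in regenerated arrays, 10.59, 9.46 and 9.58 in castrated arrays and 12.19, 11.81 and 12.10 in intact arrays. Its castrated arrays were the lowest, and it fell by 2.16 ± 0.37 log2 (adjusted p = 0.00569) and rose by 2.03 ± 0.34 log2 (adjusted p = 0.00748). Rpn2 (ribophorin II) measured 10.15, 10.25, 10.18 and 9.78 in regenerated arrays, 9.50, 8.74 and 8.98 in castrated arrays and 10.37, 10.12 and 10.60 in intact arrays, and fell by 1.29 ± 0.26 log2 (adjusted p = 0.0131) and rose by 1.02 ± 0.24 log2 (adjusted p = 0.0387). The first Rpn2 call ended without castrated replicate 2 or intact replicate 1 (adjusted p = 0.0547 to 0.0594), and the second without any of 7 arrays, all but regenerated replicate 4, castrated replicate 1 and intact replicate 3 (0.0602 to 0.155). The catalytic subunit Stt3a measured 13.07, 13.19, 13.43 and 12.08 in regenerated arrays, 12.62, 12.24 and 12.17 in castrated arrays and 13.30, 13.14 and 13.39 in intact arrays, and its regenerated replicate 4 lay below every castrated array. Stt3a differed by -0.93 ± 0.33 log2 (adjusted p = 0.123) and 0.60 ± 0.31 log2 (adjusted p = 0.328), neither called, and both were called without that array (adjusted p = 0.0125 and 0.022). Ddost, a structural subunit, measured 13.85, 13.97, 14.14 and 13.29 in regenerated arrays, 13.21, 12.54 and 13.03 in castrated arrays and 13.75, 13.41 and 14.05 in intact arrays. It differed by -0.81 ± 0.29 log2 (adjusted p = 0.127) and 0.89 ± 0.27 log2 (adjusted p = 0.0925), and the second difference was called without regenerated replicate 4 (adjusted p = 0.0236).

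In ERAD, 8 of 10 genes fell in castrated arrays and 9 of 10 rose in regenerated against castrated arrays, with medians of -1.76 and 1.89 log2. The Edem proteins trim or recognise mannose on misfolded chains. Edem3 (TC0100001358.mm.1) measured 11.13, 11.50, 11.23 and 10.72 in regenerated arrays, 9.16, 8.84 and 9.35 in castrated arrays and 13.24, 12.87 and 11.28 in intact arrays, and its intact replicate 3 was well under the other intact arrays. It had the largest castrated difference of the 48 genes, a fall of 3.34 ± 0.45 log2 (adjusted p = 0.00165), which is 10.2-fold lower, or of 3.94 log2 without intact replicate 3. Edem3 rose by 2.03 ± 0.42 log2 (adjusted p = 0.021) against castrated arrays, a call that ended without regenerated replicate 2 or 3 or castrated replicate 1 or 2 (adjusted p = 0.0558 to 0.0873). Edem3 also had the lowest regenerated difference from intact arrays of the 48 genes, at -1.31 ± 0.42 log2 (adjusted p = 0.31) with a 95% interval of -2.24 to -0.39, not called. Edem2 fell by 2.32 ± 0.38 log2 (adjusted p = 0.00453) and rose by 2.07 ± 0.35 log2 (adjusted p = 0.0079). Edem1 differed by -1.23 ± 0.36 log2 (adjusted p = 0.0661) in castrated arrays, called without regenerated replicate 4 (adjusted p = 0.0379), and rose by 1.55 ± 0.34 log2 (adjusted p = 0.0265), a call that ended without regenerated replicate 2 or 3 or castrated replicate 2 or 3 (0.0593 to 0.0808).

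Genes of the ERAD ubiquitin ligase and its partners moved in the same direction. Herpud1 (TC0800001106.mm.1), which assembles the complex around the ubiquitin ligase, measured 16.28, 15.41, 15.40 and 15.27 in regenerated arrays, 13.55, 12.94 and 12.96 in castrated arrays and 15.57, 15.61 and 15.88 in intact arrays. Castrated arrays were separate from all others, and Herpud1 fell by 2.54 ± 0.29 log2 (adjusted p = 0.000666) and rose by 2.44 ± 0.27 log2 (adjusted p = 0.00073). The ligase Syvn1 (Hrd1) ranged over 10.63 to 11.23 in regenerated, 8.0 to 9.04 in castrated and 9.92 to 10.48 in intact arrays. It fell by 1.60 ± 0.32 log2 (adjusted p = 0.0135), a call that ended without intact replicate 2 (adjusted p = 0.0598), and rose by 2.23 ± 0.30 log2 (adjusted p = 0.00229). Its partner Sel1l fell by 1.47 ± 0.20 log2 (adjusted p = 0.0018) and rose by 1.75 ± 0.19 log2 (adjusted p = 0.000668), and the lectin Os9 fell by 1.83 ± 0.33 log2 (adjusted p = 0.00814) and rose by 1.45 ± 0.31 log2 (adjusted p = 0.0252). The Os9 rise was not called without regenerated replicate 2 or 3 or castrated replicate 2 (adjusted p = 0.0705 to 0.0915).

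The derlins, membrane proteins that help move chains out of the ER, gave unequal values. Derl3 (TC1000000726.mm.1) measured 10.61, 11.30, 11.74 and 10.86 in regenerated arrays, 7.94, 6.49 and 5.59 in castrated arrays and 9.13, 8.03 and 9.84 in intact arrays. Every regenerated array was above every intact array, and every castrated array was below every intact array. Derl3 rose by 4.45 ± 0.56 log2 (adjusted p = 0.00158) in regenerated against castrated arrays, the largest rise of the 48 genes, which is 21.9-fold. Castrated replicate 3 was under the highest background value for it, and the rise was 5.09 log2 without castrated replicate 1. Derl3 fell by 2.33 ± 0.60 log2 (adjusted p = 0.0406) in castrated arrays, or by 2.96 log2 without castrated replicate 1, and this call was weak. It ended without regenerated replicate 2 or 3, castrated replicate 2 or 3, or intact replicate 1 or 3 (adjusted p = 0.0505 to 0.135), with the arrays of only castrated and intact mice (0.076), with no mean-variance trend (0.0539) and with the replicate number as a block (0.0804). Against intact arrays the regenerated difference was 2.13 ± 0.56 log2 (adjusted p = 0.269), with a 95% interval of 0.88 to 3.37, not called. Derl1 fell by 1.70 ± 0.35 log2 (adjusted p = 0.0158) and rose by 1.56 ± 0.33 log2 (adjusted p = 0.0236). Its first call ended without castrated replicate 2 or intact replicate 1 or 2 (adjusted p = 0.0534 to 0.0669), and its second without regenerated replicate 2 or 3 or castrated replicate 2 or 3 (0.0596 to 0.102). Derl2 measured 6.65, 6.49, 6.88 and 5.65 in regenerated arrays, 5.42, 5.32 and 5.66 in castrated arrays and 6.06, 6.16 and 6.31 in intact arrays, with 7 of 10 arrays at or under the highest background value, and differed by -0.71 ± 0.27 log2 (adjusted p = 0.157) and 0.95 ± 0.25 log2 (adjusted p = 0.061). Of those 7 arrays, only castrated replicate 3 was under the highest background row of its own array. Without regenerated replicate 4 both Derl2 differences were called (adjusted p = 0.0165 and 0.00176).

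Of the 5 sensors and regulators, 1 fell in castrated arrays and the same 1 rose in regenerated arrays, with medians of -0.55 and 0.56 log2. It was Eif2ak3 (TC0600000813.mm.1), which encodes PERK, the kinase that slows translation under ER stress, and it measured 8.55, 8.63, 8.56 and 8.68 in regenerated arrays, 7.80, 7.64 and 7.56 in castrated arrays and 8.81, 8.69 and 8.63 in intact arrays. The castrated arrays lay below the others, and regenerated and intact arrays overlapped. Eif2ak3 fell by 1.04 ± 0.17 log2 (adjusted p = 0.00485) and rose by 0.93 ± 0.16 log2 (adjusted p = 0.00812).

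Xbp1, a transcription factor of secretory cells whose active form arises by splicing, measured 13.71, 13.44, 13.56 and 12.96 in regenerated arrays, 13.24, 12.90 and 13.53 in castrated arrays and 13.57, 13.56 and 14.20 in intact arrays, with every castrated array under the lowest intact array and the regenerated arrays overlapping both groups. It differed by -0.55 ± 0.28 log2 (adjusted p = 0.299) between castrated and intact arrays, with a 95% interval of -1.17 to 0.06, and by 0.20 ± 0.26 log2 (adjusted p = 0.76) between regenerated and castrated arrays. The row does not separate the spliced from the unspliced transcript. Atf6 measured 11.67, 12.11, 11.95 and 12.66 in regenerated arrays, 11.21, 11.18 and 10.99 in castrated arrays and 12.15, 11.99 and 11.93 in intact arrays, with castrated arrays lowest, and differed by -0.89 ± 0.26 log2 (adjusted p = 0.067) and 0.97 ± 0.25 log2 (adjusted p = 0.0504). Neither Atf6 difference was called with all arrays, and both were without regenerated replicate 4 (adjusted p = 0.0142 and 0.0355), as was the second without regenerated replicate 1 (adjusted p = 0.0343).

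Ern1, which encodes the endonuclease IRE1 that splices Xbp1, measured 12.11, 12.72, 12.13 and 13.37 in regenerated arrays, 12.04, 12.00 and 12.04 in castrated arrays and 11.77, 11.51 and 11.64 in intact arrays. It alone of the 48 genes had every castrated array above every intact array, which held for 17.4% of all genes. The difference of Ern1 was 0.38 ± 0.32 log2 (adjusted p = 0.572) and was not called. Its regenerated arrays were higher again, most of all replicate 4, at 0.94 ± 0.30 log2 (adjusted p = 0.309) against intact arrays. Ern2, the IRE1 of mucosal epithelium, measured 3.94, 4.22, 3.95 and 4.16 in regenerated arrays, 3.90, 3.98 and 3.90 in castrated arrays and 3.89, 3.93 and 3.89 in intact arrays, under the highest background value in all 10 arrays, and no difference in it was called.

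**Figure D5:**
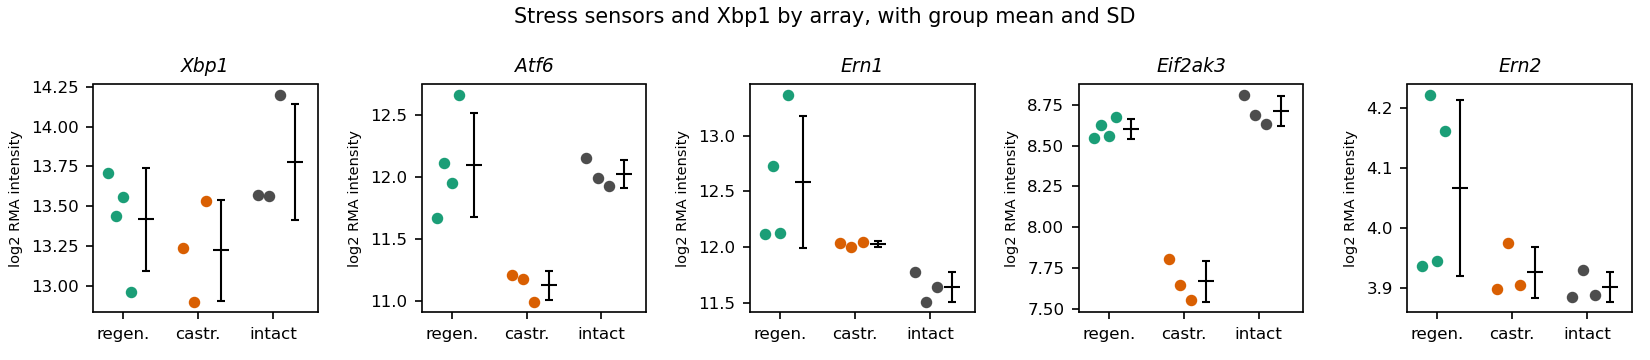
Log2 RMA intensity of the 5 stress sensors and regulators in each regenerated (left, n = 4), castrated (middle, n = 3) and intact array (right, n = 3), with group mean and SD; each panel has its own axis, which does not start at 0. For Eif2ak3 the castrated arrays lie between 7.56 and 7.80, below all others, while for Xbp1 the regenerated arrays overlap both other groups.

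Other genes of the same pathways were read from lists that leave out the 48. Of 92 measured among 100 listed, 25 fell in castrated arrays and none rose, with a median of -0.58 log2. In regenerated against castrated arrays 21 rose and none fell, with a median of 0.54 log2. For these and the single lists below, the shares of all genes called were 3.19% for a fall and 1.97% for a rise. None of the 92 was called between regenerated and intact arrays, where 0.0365% of all genes were called. With 1 array left out the first count ran from 13, without intact replicate 1, to 36, without regenerated replicate 4, and the second from 11, without castrated replicate 2, to 31, without regenerated replicate 4. Among 21 further chaperones and folding factors, 7 fell and 6 rose. Nucb2, a calcium-binding protein of the secretory pathway, averaged 16.05 ± 1.10 in regenerated, 12.91 ± 0.63 in castrated and 16.50 ± 0.16 in intact arrays (SD), and fell by 3.58 ± 0.55 log2 (adjusted p = 0.00348) and rose by 3.14 ± 0.52 log2 (adjusted p = 0.00681). Serp1, which stabilises membrane proteins at the translocon, fell by 2.04 ± 0.29 and rose by 1.96 ± 0.27, and Dnajc1, a membrane DnaJ protein, fell by 1.87 ± 0.22 and rose by 1.73 ± 0.20.

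The signal recognition particle and its receptor bring ribosomes that make secreted proteins to the ER. Of 13 further genes of targeting and translocation, 5 fell and 4 rose. Tram1, a translocon partner, fell by 2.76 ± 0.38 log2 (adjusted p = 0.00183) and rose by 2.31 ± 0.35 log2 (adjusted p = 0.00439). Srp68, a protein of the particle, fell by 2.34 ± 0.34, and Srpr, a subunit of the receptor, fell by 2.11 ± 0.32. Of 12 further glycosylation genes, 3 fell and 2 rose. Magt1, an oligosaccharyltransferase subunit with oxidoreductase activity, fell by 2.12 ± 0.26 log2 (adjusted p = 0.00109) and rose by 2.13 ± 0.24 log2 (adjusted p = 0.000916). Stt3b, the second catalytic subunit, fell by 1.61 ± 0.31 log2 (adjusted p = 0.0119, and 0.0585 without intact replicate 1). Its difference between regenerated and castrated arrays was 1.07 ± 0.29 log2 (adjusted p = 0.0678), called without regenerated replicate 4 (adjusted p = 0.00769).

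Of 17 further ERAD genes, 4 fell and 3 rose. Nploc4 and Vcp, parts of the segregase that pulls chains into the cytosol, fell by 2.13 ± 0.42 and 1.40 ± 0.31, and Selenos, a membrane anchor of that segregase, fell by 1.53 ± 0.25. Of 13 further disulfide genes, 2 fell, Txndc5 by 1.54 ± 0.32 and Txndc11 by 1.32 ± 0.30, and 2 rose. Of 16 further genes of the unfolded protein response, 4 fell and 4 rose. Atf6b, a relative of Atf6, fell by 1.62 ± 0.37 log2 (adjusted p = 0.0232), and Mbtps1, the protease that releases ATF6 in the Golgi, by 1.43 ± 0.27 log2 (adjusted p = 0.00952). The fall of Nploc4 was not called without intact replicate 1 (adjusted p = 0.0609). Those of Txndc5 and Atf6b were not called without castrated replicate 2 or 3 or intact replicate 1 or 3 (adjusted p = 0.0511 to 0.083), and those of Vcp and Txndc11 without castrated replicate 2 or 3 or intact replicate 1 or 2 (0.0578 to 0.101). Atf4 and Ddit3, effectors downstream of PERK chosen by name after their values were seen, differed by 0.52 ± 0.26 log2 (adjusted p = 0.297) and -0.13 ± 0.63 log2 (adjusted p = 0.946) in castrated arrays, neither called. The regenerated against castrated differences were -0.60 ± 0.24 log2 (adjusted p = 0.212) and 1.44 ± 0.59 log2 (adjusted p = 0.22), neither called. Ddit3 measured 14.00, 11.70, 11.37 and 13.35 in regenerated arrays. It lay 1.32 ± 0.59 log2 above intact arrays (adjusted p = 0.498), not called.

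Chaperones of the cytosol and mitochondria were measured the same way. Of 23 measured among 27 listed, 1 (4.35%) rose in castrated against intact arrays, where 4.82% of all genes did, and none fell, with a median of 0.42 log2. An unadjusted p under 0.05 was found for 6 of the 23 (26.1%) and for 20.7% of all genes. The gene called was Cct4, a subunit of the cytosolic chaperonin, at 0.87 ± 0.21 log2 (adjusted p = 0.0337), and its call ended without any of 7 arrays, regenerated replicate 2 or any castrated or intact array (adjusted p = 0.0532 to 0.149). Between regenerated and castrated arrays none of the 23 was called by limma, 3 (13.0%) had an unadjusted p under 0.05, against 18.9% of all genes, and the median was -0.09 log2.

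Of the 44 markers of other cell types, 1 was called lower and 5 higher in castrated than in intact arrays. Over all genes the shares were 3.19% and 4.82%. In regenerated against castrated arrays 1 marker was called higher and 2 lower, where 1.97% and 3.01% of all genes were. Dcn (decorin), a stromal proteoglycan, averaged 11.37 ± 0.46 in regenerated, 7.53 ± 1.35 in castrated and 12.23 ± 0.73 in intact arrays (SD), and fell by 4.70 ± 0.61 log2 (adjusted p = 0.00143) and rose by 3.83 ± 0.57 log2 (adjusted p = 0.00394). Without castrated replicate 2 its differences were -5.48 and 4.61 log2. The 8 stromal markers, 7 of which had every group mean under the highest background value, summed to 37.9 to 39.4 log2 in regenerated, 34.7 to 37.7 in castrated and 38.7 to 39.9 in intact arrays. The 5 seminal vesicle markers summed to 23.4 to 58.0 in regenerated, 34.5 to 35.8 in castrated and 37.8 to 55.8 in intact arrays, so that the regenerated arrays spread above and below the castrated ones. The 8 genes of dissociation stress summed to 96.0 to 103 in regenerated, 107 to 110 in castrated and 102 to 105 in intact arrays, with Ier3 called higher in castrated arrays at 1.01 log2, and Ier3 and Ier2 called lower in regenerated than in castrated arrays at -1.03 and -1.40 log2. The T cell marker Cd3e averaged 6.40 ± 0.74 in regenerated, 10.45 ± 1.91 in castrated and 7.05 ± 1.46 in intact arrays and was called between regenerated and castrated arrays at -4.04 ± 0.87 log2 (adjusted p = 0.0253). That difference was -5.14 log2 without castrated replicate 3, and -3.39 log2 and not called without castrated replicate 2 (adjusted p = 0.103). The call also ended without castrated replicate 1 or regenerated replicate 2 or 3 (adjusted p = 0.0674 to 0.0886), and the castrated difference from intact arrays, 3.39 log2 (adjusted p = 0.0507), was called without castrated replicate 3 at 4.49 log2 (adjusted p = 0.00994) or without regenerated replicate 4 (0.0455). Of the 6 T cell markers 5 had every group mean under the highest background value. The 5 basal markers summed to 29.7 to 32.7 in regenerated, 30.8 to 32.0 in castrated and 27.4 to 28.5 in intact arrays, with Krt17 and Krt14 called higher in castrated arrays at 1.31 and 0.52 log2, and Krt17 called lower in regenerated than in castrated arrays at -1.15 log2. Every group mean was at or under the highest background value in 4 of the 5 basal markers and in 6 of 8 myeloid markers. The 8 myeloid markers summed to 36.4 to 42.3 in regenerated, 39.3 to 43.8 in castrated and 36.7 to 38.2 in intact arrays, with Itgam and Cd14 called higher in castrated arrays at 0.38 and 1.95 log2, and the 5 endothelial markers all stayed under the highest background value. Of the B and plasma cell markers, Sdc1 was called, higher in castrated than in intact arrays at 0.81 ± 0.19 log2 (adjusted p = 0.0258). The calls of Ier2, Krt14, Itgam and Sdc1 each ended when 1 of 3 to 8 arrays was left out (adjusted p = 0.0541 to 0.175). The part of these cells in the differences of the ER genes was not tested.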

How the data were processed

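Per the submitters' processing notes, the authors made the deposited log2 values with RMA in Affymetrix Expression Console, and no version or genome build is given in the sources used here. Such processing forces the arrays to a common distribution, so a shift of all transcripts in one direction would be reduced. Of 65956 non-control rows, 30604 carried 1 gene symbol, 2146 several and 33206 none listed; 827 symbols were updated by gene identifier from a RefSeq table of GRCm38.p6, by which Ero1l and Ero1lb became Ero1a and Ero1b. Where a gene had more than 1 row (355 genes), its highest-mean row stood for it, leaving 30142 genes, and no column was left unused. Array medians ran from 4.12 to 4.22, and precision is limited by how many arrays there are.

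limma 3.58.1 in R 4.3.3 fitted all 10 arrays in 1 model of 3 groups (lmFit, eBayes with a mean-variance trend, two-sided), with Benjamini-Hochberg adjustment over all genes and calls at an adjusted p under 0.05. The code was first tested on simulated data. Alternatives changed the variance prior, array weights, normalization, filters on dim genes, the row per gene, the least change, the groups fitted and a replicate block, and left out each array. Same-numbered arrays of different groups deviated together with correlations from -0.157 to 0.264, so the numbers were not taken as pairs. Full values are given for the 3 largest and the smallest castrated difference in each role, for all sensors, and for other genes named by role. Of the further lists, called genes with large changes were named. The members and lists were chosen with earlier results of these data known.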

Additional observations from a re-analysis of the deposited data

Results flagged for a closer look

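In 3 of the 48 genes, 1 of the 4 regenerated arrays stood far from the other regenerated arrays, past Dixon's 95% critical value for the gap over the range. P4hb was 14.64 log2 in regenerated replicate 4, the lowest of the group. Ssr2 was 15.50 log2 in regenerated replicate 4, again the lowest. Herpud1 was 16.28 log2 in regenerated replicate 1, the highest of the group. Chance flags about 1 in 20 groups, and 48 genes were examined. The groups of 3 arrays were not examined in this way.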

How the results depend on the processing

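No called difference of the 48 genes changed sign in any of 21 alternatives. Of the genes called with all arrays, 16 of 31 (castrated against intact) and 21 of 31 (regenerated against castrated) were called in every alternative. Members called lower in castrated arrays numbered 18 to 37 when 1 array was left out and 30 to 39 otherwise, and their median difference was -1.46 to -1.24 log2 with 1 array left out. Members called higher in regenerated arrays numbered 22 to 40 with 1 array left out and 23 to 39 otherwise, and no member was called between regenerated and intact arrays under any alternative. Over all genes, calls between castrated and intact arrays numbered 2414, or 4258 with array weights and 1019 to 3271 with 1 array left out. Calls between regenerated and castrated arrays numbered 1500, or 822 with only the arrays of those groups and 816 to 2127 with 1 array left out. Calls between regenerated and intact arrays numbered 11, or 0 with only those groups, 2 with no mean-variance trend, 70 with array weights, 3 with arrays centred on their medians, 1 with quantile normalization again, 22 without genes under the highest background value, 4 with the replicate block and 0 to 78 with 1 array left out. With the replicate number as a block, which leaves regenerated replicate 4 with no partner, 34 members were lower in castrated arrays, 36 higher in regenerated arrays and 0 called against intact arrays, and same-numbered arrays did not deviate together. The causes were not tested, and leaving out arrays also leaves fewer samples. Values near the highest background value of 6.40 limit the size of differences in Ero1b, Derl2, Derl3 and Ern2.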
